A study of Homo sapiens with 6 samples.

Results

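The 3p arms of the let-7 and miR-98 hairpins were followed in BEAS-2B, a human bronchial epithelial line that is immortalised and long in use, by small RNA sequencing. The members were 10 named mature miRNAs of 1727 known mature names in the tables, each the 3p product of a hairpin of the let-7 family: hsa-let-7a-3p, hsa-let-7a-2-3p, hsa-let-7b-3p, hsa-let-7d-3p, hsa-let-7e-3p, hsa-let-7f-1-3p, hsa-let-7f-2-3p, hsa-let-7g-3p, hsa-let-7i-3p and hsa-miR-98-3p (the human prefix hsa is mostly left out below). They were chosen by name, with earlier results of the comparison below known, among them a higher mean of let-7d-3p with PRMT1. Their levels and fold changes are therefore given as a description, with no test. The remaining 3p name, let-7c-3p, was not a member and had 1 to 6 reads per library.

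By the labels, control cells received pcDNA3.1, a plasmid with no insert named (3 libraries), and the others received pcDNA-PRMT1 (3 libraries) to over-express PRMT1, a protein arginine methyltransferase, each for 48 h. The comparison asked how miRNAs respond to PRMT1. Nothing in the labels states that replicates were separate cultures, so the spread between libraries may be technical, and no batch or date is given. Each library pools many cells, so a lower level per cell and fewer cells with the RNA cannot be told apart. The tables hold small RNAs, so the level of PRMT1 itself could not be checked. Libraries held 23.95 M to 25.79 M counts, of which 11.54 M to 16.42 M were known miRNAs, and miR-21-5p alone took 49.4% to 66.0% of the known miRNA counts, the highest share in control replicate 2. Summed levels of 7 bronchial epithelial miRNAs lay between 7745 and 10080 CPM. Most of the sum came from miR-200a-3p, miR-429 and miR-200b-3p, with means of 4008, 2371 and 2230 CPM over the 6 libraries. The means of miR-200c-3p and miR-141-3p were 48.3 and 20.4 CPM, and those of miR-205-5p and miR-203a-3p were under 8 CPM. CPM here is relative to each library's known miRNA counts after TMM scaling, and it has no length term. The single endothelial marker, miR-126-3p, reached 1581 to 2231 CPM, against 23.0 to 34.8 CPM for 2 fibroblast and smooth muscle miRNAs and 0.586 to 1.48 CPM for the liver marker miR-122-5p. Summed levels ran from 72.5 to 131 CPM for 5 blood miRNAs, from 183 to 293 CPM for 2 neural miRNAs and from 9.17 to 13.8 CPM for 3 muscle miRNAs, and the sums of each list overlapped between groups; miR-486-5p made up most of the blood sum. Among single markers, miR-150-5p, miR-145-5p and miR-205-5p had all PRMT1 libraries above the control libraries, and miR-429 had all of them below. MiR-145-5p had only 10 to 24 counts per library. Over all 668 tested known miRNAs, 5.39% had all PRMT1 libraries above the control libraries and 4.79% had all of them below.

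A miRNA hairpin is cut by DROSHA and DICER into a short duplex, of which one strand, the guide, is kept by an Argonaute protein and directs it to target messenger RNAs through its seed, bases 2 to 8. The other strand, the passenger, is mostly discarded. In let-7 hairpins the guide is the 5p arm, a restraint on growth genes in differentiated tissue, and the 3p arm is the passenger. The abundance of a 3p arm beside its 5p arm therefore shows how much of the passenger strand was recovered.

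The mature sequences are shown because the 5p arms share one seed whereas the 3p arms do not. They were taken from RefSeq (GRCh38.p14), where 9 of the 10 members matched by name; let-7f-2-3p did not match. Each is written 5′ to 3′ with the seed in capitals, and the members are grouped by seed.
let-7a-3p: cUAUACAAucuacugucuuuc
let-7b-3p: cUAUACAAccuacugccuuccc
let-7f-1-3p: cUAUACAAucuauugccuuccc
miR-98-3p: cUAUACAAcuuacuacuuuccc
let-7d-3p: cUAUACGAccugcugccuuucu
let-7e-3p: cUAUACGGccuccuagcuuucc
let-7a-2-3p: cUGUACAGccuccuagcuuucc
let-7g-3p: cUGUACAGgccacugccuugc
let-7i-3p: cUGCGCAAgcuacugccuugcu

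These 9 sequences, of 21 or 22 bases, fell into 5 seed groups, and all 9 began with C. No other mature name in the RefSeq table carried any of the 5 seeds. By contrast, the 8 5p arms of the same hairpins shared the single seed GAGGUAG, and 7 of them began with U. The exception, let-7d-5p, began with A, as the lines for the most abundant 5p arm and for let-7d-5p show.
let-7i-5p: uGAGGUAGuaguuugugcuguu
let-7a-5p: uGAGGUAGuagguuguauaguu
let-7d-5p: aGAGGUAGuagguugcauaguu

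The 3p arms with a matched sequence were easier to tell apart than the 5p arms. Compared base by base from the 5′ end without gaps, pairs of 3p sequences differed at a median of 6 positions (2 to 11 over 36 pairs), and pairs of 5p sequences at a median of 3 (1 to 6 over 28 pairs). Let-7f-2-3p, without a matched sequence, was not compared, so a closer pair that includes it may be missing here. Among the compared 3p sequences the closest pairs, with 2 differences each, were let-7a-2-3p with let-7e-3p and let-7b-3p with let-7f-1-3p. How reads with several matches were divided is not given in the sources used here, so these close names could share reads. Some names also pool loci: let-7a-3p arises from the identical 3p arms of MIRLET7A1 and MIRLET7A3, let-7a-5p from 3 hairpins and let-7f-5p from 2.

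The 11 hairpins lie on 7 chromosomes (positions from RefSeq, GRCh38.p14; genes from GENCODE release 29, GRCh38; the submitters' processing notes name GRCh37.p13, which was not used for positions). MIRLET7A1, MIRLET7F1 and MIRLET7D lie in that order on the plus strand of chromosome 9, with 310 and 2400 bases between them, in an intron of the long non-coding gene AL158152.2. MIRLET7A3 and MIRLET7B lie 863 bases apart on chromosome 22, in exons of the long non-coding gene MIRLET7BHG. MIR98 and MIRLET7F2 lie 850 bases apart in an intron of HUWE1, a ubiquitin ligase gene on chromosome X. MIRLET7A2 is in an intron of MIR100HG on chromosome 11, MIRLET7E in an intron of SPACA6 on chromosome 19, MIRLET7G in an intron of WDR82 on chromosome 3 and MIRLET7I in an intron of the long non-coding gene AC048341.1 on chromosome 12. The opposite strand at MIRLET7I and MIRLET7E also carries an exon of a long non-coding gene, LINC01465 and SPACA6P-AS, and the sources used here do not give whether counting used strand.

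The 3p arms were a small part of the let-7 signal in every library. Together the 10 members took 0.0315% to 0.0681% of known miRNA counts in control and 0.0685% to 0.0949% with PRMT1. For each read of a 3p arm there were 190, 287 and 129 reads of the 8 5p arms in control replicates 1 to 3, and 110, 135 and 134 in PRMT1 replicates 1 to 3. The 3p arm stayed below the 5p arm in all 6 libraries for 8 of 8 hairpin families, where a family joins hairpins that share a 5p name.

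Among the members, let-7d-3p had the highest mean level over the 6 libraries (242 CPM), followed by let-7a-3p (146 CPM), let-7i-3p (83.4 CPM), let-7e-3p (68.6 CPM), let-7f-2-3p (28.2 CPM) and let-7f-1-3p (20.8 CPM). Lower means were those of let-7a-2-3p (13.7 CPM), miR-98-3p (10.9 CPM), let-7b-3p (10.3 CPM) and let-7g-3p (6.49 CPM). The order of neighbours held in 6 of 6 libraries only between let-7e-3p and let-7f-2-3p, between let-7f-1-3p and let-7a-2-3p, and between let-7b-3p and let-7g-3p. Let-7d-3p exceeded let-7a-3p in 4 of 6 libraries, and let-7i-3p exceeded let-7e-3p in 2 of 6. The 5p arms followed another order, with means over the 6 libraries of 26850 CPM for let-7i-5p and 25870 CPM for let-7a-5p but 4128 CPM for let-7d-5p.

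**Figure D1:**
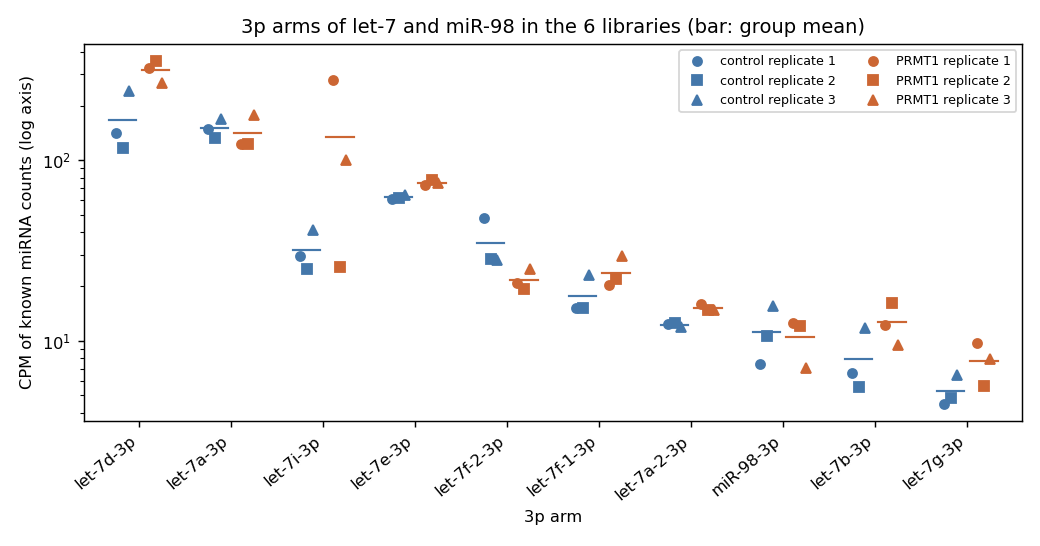
Level of each 3p arm in the 6 libraries, in CPM of known miRNA counts on a log axis; each point is a library, bars are group means, and arms are ordered by their mean over all libraries. With TMM scaling, let-7d-3p, let-7e-3p and let-7a-2-3p have all 3 PRMT1 points above the control points, and let-7f-2-3p has all of them below. Let-7i-3p spreads from 25.7 to 278 CPM among PRMT1 libraries.

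Hsa-let-7d-3p, the passenger of the third hairpin on chromosome 9, was the most abundant member and stood higher in PRMT1 libraries. Its level was 142, 118 and 242 CPM in control replicates 1 to 3 (1930, 1470 and 3107 counts) and 326, 354 and 269 CPM in PRMT1 replicates 1 to 3 (5008, 4307 and 3213 counts). Control replicate 3 lay nearest to the PRMT1 libraries, and the groups did not overlap. Means were 167 ± 65.8 CPM in control and 316 ± 43.5 CPM with PRMT1 (SD, n = 3 each), a log2 fold change of 0.92 (SE 0.31). The gap depended on scaling: with library size alone the highest control value was 269 CPM and the lowest PRMT1 value 265 CPM, so the groups overlapped, whereas they stayed apart with RLE and upper quartile scaling. Over all 668 tested names, edgeR's quasi-likelihood test with Benjamini-Hochberg adjustment called 0% at an adjusted p of 0.05, and no member was called. At an unadjusted p under 0.05 there were 36 names, and DESeq2 called 4 names (0.232% of those it tested), none of them a member.

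The 5p arm of the same hairpin had a fold change of the opposite sign. Let-7d-5p was at 4738, 4925 and 3903 CPM in control and 4005, 3721 and 3476 CPM in PRMT1 replicates 1 to 3, a log2 fold change of -0.28 (SE 0.17) with overlapping groups. Within a library the share of an arm needs no scaling. The 3p arm took 2.90%, 2.33% and 5.83% of let-7d reads in control and 7.52%, 8.69% and 7.18% in PRMT1 replicates 1 to 3, with 95% Wilson intervals of at most ± 0.25 percentage points, which cover counting error only. The PRMT1 shares all lay above the control shares, at means of 7.80% ± 0.793 against 3.69% ± 1.88 (SD, n = 3 each). The log2 ratio of 3p to 5p reads was higher by 1.25 (SE 0.39). It was higher by 0.97 without control replicate 2 and by 1.66 without control replicate 3.

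The let-7d hairpin is shown to place both arms, which are in capitals, 5p first; it lies on the plus strand at chr9:94178834-94178920 (GRCh38.p14).
MIRLET7D: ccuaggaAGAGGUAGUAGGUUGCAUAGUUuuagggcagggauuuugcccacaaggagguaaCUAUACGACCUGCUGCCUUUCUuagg

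Hsa-let-7i-3p, the passenger of the most abundant 5p arm, had the widest spread. Its level was 29.7, 25.0 and 40.8 CPM in control replicates 1 to 3 and 278, 25.7 and 101 CPM in PRMT1 replicates 1 to 3. PRMT1 replicates 1 and 3 stood above every control library, while PRMT1 replicate 2 lay within the control range. The means were 31.8 ± 8.16 and 135 ± 130 CPM (SD, n = 3 each), and the log2 fold change of 2.09 (SE 0.85) was 0.95 without PRMT1 replicate 1 and 1.51 with the replicate number as a block. Let-7i-5p was at 27050 ± 6430 and 26650 ± 1690 CPM (log2 -0.02, SE 0.18). The 3p share of let-7i reads was 0.121%, 0.0725% and 0.182% in control and 0.966%, 0.101% and 0.384% in PRMT1 replicates 1 to 3, with Wilson intervals of at most ± 0.029 points. Let-7i-3p counted 4279 reads in PRMT1 replicate 1 and 312 in PRMT1 replicate 2.

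Let-7e-3p and let-7a-2-3p, which differ at 2 positions, both stood slightly higher in PRMT1 libraries, with little spread after TMM scaling. Hsa-let-7e-3p was at 60.9, 61.5 and 64.3 CPM in control and 72.7, 77.5 and 74.4 CPM in PRMT1 replicates 1 to 3, without overlap (log2 0.27, SE 0.22). With library size alone its control libraries ran from 46.8 to 71.6 CPM, against a lowest PRMT1 value of 73.4 CPM. Let-7a-2-3p was at 12.3, 12.6 and 11.9 CPM in control and 16.1, 14.7 and 14.8 CPM with PRMT1, also without overlap (log2 0.31, SE 0.24), though its groups overlapped with upper quartile scaling. The arm share of let-7e showed no such separation, at 1.68%, 1.37% and 2.34% in control and 1.77%, 2.02% and 1.87% with PRMT1.

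Hsa-let-7f-2-3p, from the HUWE1 intron, was the only member whose PRMT1 libraries all lay below the control libraries. Its level was 47.8, 28.3 and 27.9 CPM in control and 20.95, 19.2 and 25.1 CPM in PRMT1 replicates 1 to 3. The log2 fold change of -0.67 (SE 0.29) was -0.38 without control replicate 1, the highest library, and with library size scaling the groups overlapped. The neighbouring miR-98-3p was at 7.41, 10.6 and 15.6 CPM in control and 12.5, 12 and 7.03 CPM with PRMT1 (log2 -0.09, SE 0.36; -0.33 without control replicate 1 and 0.18 without control replicate 3).

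The other 4 members overlapped between groups. Let-7a-3p, which pools a chromosome 9 and a chromosome 22 hairpin, was at 149, 133 and 168 CPM in control and 122, 123 and 177 CPM with PRMT1 (log2 -0.09, SE 0.26; -0.30 without PRMT1 replicate 3). Let-7b-3p ran from 5.52 to 11.7 CPM in control and from 9.45 to 16.3 CPM with PRMT1 (log2 0.67, SE 0.36; 0.42 without PRMT1 replicate 2 and 0.999 without control replicate 3). Let-7f-1-3p ran from 15.1 to 23.0 and from 20.2 to 29.4 CPM (log2 0.42, SE 0.28; 0.24 without PRMT1 replicate 3). Let-7g-3p, the least abundant member with 60 to 149 counts per library, ran from 4.48 to 6.46 and from 5.59 to 9.69 CPM (log2 0.56, SE 0.32; 0.33 without PRMT1 replicate 1).

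Counted together, 7 of 10 members had a log2 fold change above 0, with a median of 0.37, beside 53.9% of all 668 tested names and a median of 0.04. With TMM scaling, groups did not overlap in 3 members with PRMT1 higher, beside 5.39% of all names, and in 1 member with PRMT1 lower, beside 4.79%. These counts come from the contrast known when the members were chosen. They also depend on scaling: let-7d-3p and let-7f-2-3p overlapped between groups with library size alone, and let-7a-2-3p with upper quartile scaling. Summed over the 10 members, the level was 475, 414 and 612 CPM in control and 891, 670 and 715 CPM in PRMT1 replicates 1 to 3, a log2 fold change of 0.60 (SE 0.24). Without let-7d-3p the log2 fold change of the sum was 0.41 (SE 0.26), and without let-7d-3p and let-7i-3p it was -0.00 (SE 0.22). These 2 names had the largest fold changes of the members, so a fall was built in. The omission of both was chosen after the values were seen. Over the libraries let-7d-3p made up 28.4% to 52.8% of the member reads and let-7i-3p 3.83% to 31.3%.

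**Figure D2:**
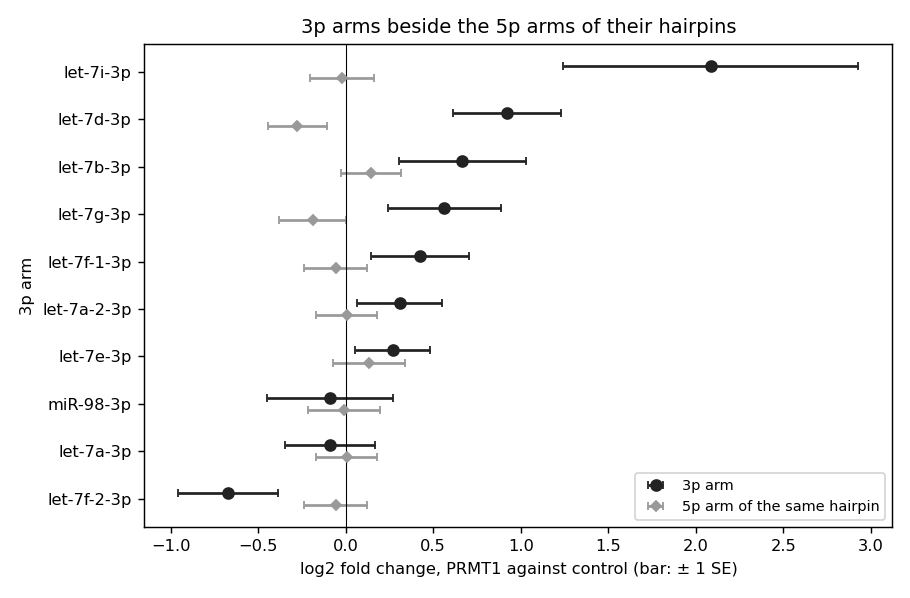
Log2 fold change of PRMT1 against control libraries for each 3p arm (black circles) and for the 5p arm of its hairpin (grey diamonds), with bars of 1 SE; let-7a-5p and let-7f-5p each appear beside 2 members. The 5p arms lie between -0.28 and 0.14, and the 3p arms between -0.67 and 2.09.

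Grouped by seed, the 4 members with seed UAUACAA gave nearly the same summed level in both groups, 187 ± 28.4 CPM in control and 188 ± 30.6 CPM with PRMT1 (SD, n = 3 each), with let-7a-3p as the largest part. The pair with seed UGUACAG, let-7a-2-3p and let-7g-3p, summed to 16.8, 17.4 and 18.4 CPM in control and 25.8, 20.3 and 22.8 CPM in PRMT1 replicates 1 to 3. The seeds of let-7d-3p, let-7e-3p and let-7i-3p belong to 1 member each.

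The 3p arms of neighbouring hairpins were set side by side. In the chromosome 9 cluster the log2 fold changes were 0.42 for let-7f-1-3p and 0.92 for let-7d-3p, while the third hairpin there shares the name let-7a-3p with chromosome 22. On chromosome X they were -0.09 for miR-98-3p and -0.67 for let-7f-2-3p. Differences between neighbours were not tested. Of 10 listed names transcribed with or beside a let-7 hairpin, 8 were tested: 5 lay above and 3 below 0 with a median of 0.20, and 0 had groups apart, beside 5.39% higher and 4.79% lower over all tested names. MiR-125b-1-3p, a passenger arm from the MIR100HG transcript that also carries let-7a-2, was at 20.99, 12 and 26.3 CPM in control and 70.2, 17.8 and 44.9 CPM in PRMT1 replicates 1 to 3 (log2 1.17, SE 0.50). Its PRMT1 libraries had the same order as those of let-7i-3p and let-7g-3p, which lie on other chromosomes. Let-7a-2-3p, of the same transcript, also had this order, with PRMT1 replicates 2 and 3 close at 14.72 and 14.8 CPM. A shared order of 3 libraries is a description only. In the let-7e transcript, miR-99b-3p was at a log2 fold change of -0.03 (SE 0.26) and miR-125a-3p at 0.25 (SE 0.25).

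The let-7 guide list held 12 names, of which 11 were detected, and its tested names had small fold changes. Of its 9 tested members 4 lay above and 5 below 0, with a median of -0.01, and 0 had groups apart, beside the same 5.39% and 4.79% over all names. Summed over the 8 5p arms of the members' hairpins, the log2 fold change was -0.05 (SE 0.17). Reads assigned to the let-7 precursor family, a separate class of the tables, made up 0.0073% ± 0.00308 of the whole control libraries and 0.00729% ± 0.00118 of the PRMT1 libraries (SD, n = 3 each). Its highest value was in control replicate 2 and its lowest in control replicate 3.

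The share of the 3p arm differed widely among let-7 hairpin families. Mean shares over the 6 libraries were 5.74% for let-7d, 1.84% for let-7e, 0.625% for let-7a, 0.486% for miR-98, 0.310% for let-7f, 0.305% for let-7i, 0.121% for let-7g and 0.0969% for let-7b. Let-7d and let-7b are thus far apart although their 3p sequences differ at 4 positions. The let-7d share exceeded that of each of the other 7 families in all 6 libraries.

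**Figure D3:**
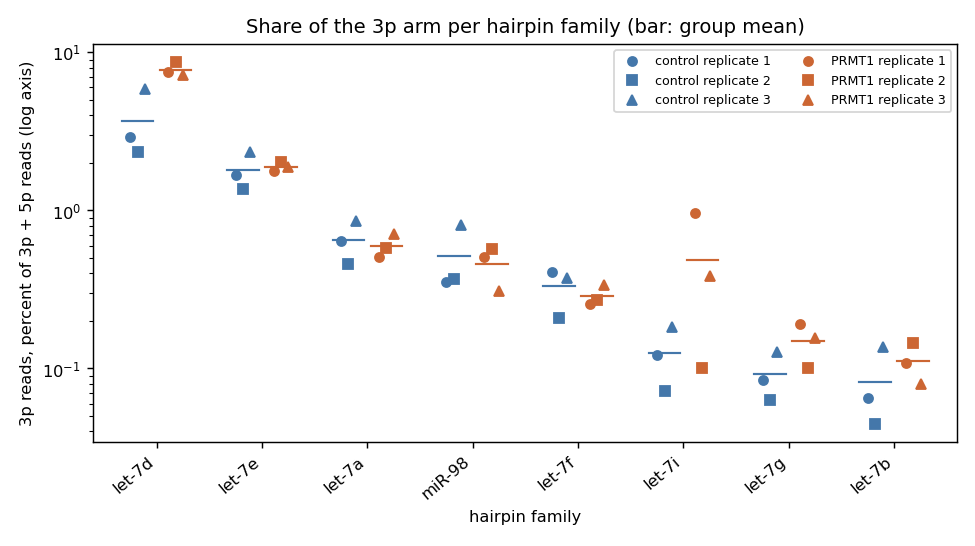
Reads of the 3p arm as a percent of 3p plus 5p reads of the same hairpin family, on a log axis; each point is a library and bars are group means. Let-7d lies highest, between 2.33% and 8.69%, and its 3 PRMT1 points lie above its control points.

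These shares were set beside those of 190 hairpin families of known miRNAs whose smaller arm had a mean of at least 10 counts. Over these, the smaller arm took a median of 6.34% of the reads, and the 8 let-7 and miR-98 families all lay below that value. Let-7b ranked lowest of the 8, with 7 of 190 families below it, and let-7d highest, with 91 below it. The minimum count removes scarce hairpins with a low share, so the comparison was repeated with the 66 families whose larger arm had a mean of at least 10000 counts, a limit chosen after the values were seen. The median there was 0.653%; 57 families had a lower share than let-7d and 47 a lower share than let-7e, and the other 6 families lay below the median.

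**Figure D4:**
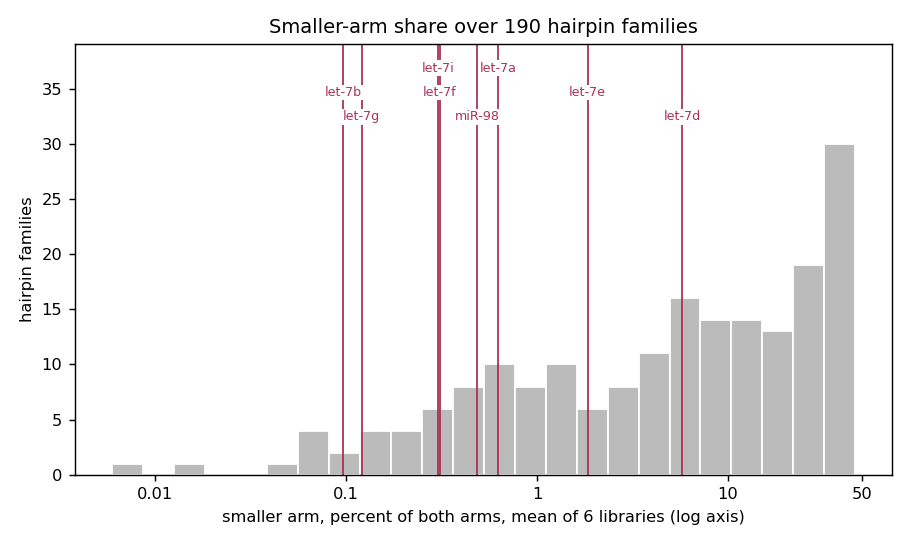
Histogram of the smaller arm's percent of both arms, mean of 6 libraries, over 190 hairpin families on a log axis; vertical lines mark the let-7 and miR-98 families. All 8 lines lie below the median of 6.34%, with let-7d at 5.74% and let-7b at 0.0969%.

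Between groups, the log2 ratio of 3p to 5p reads had a higher mean with PRMT1 in 5 of the 8 let-7 and miR-98 families: by 1.52 (SE 0.80) for let-7i, 1.25 for let-7d, 0.71 (SE 0.42) for let-7g, 0.55 (SE 0.47) for let-7b and 0.10 (SE 0.32) for let-7e. It had a lower mean in let-7f (-0.16, SE 0.36), let-7a (-0.09, SE 0.33) and miR-98 (-0.08, SE 0.44). The value for let-7i was 0.75 without PRMT1 replicate 1 and 2.39 without PRMT1 replicate 2, that for let-7b was 0.19 without control replicate 2 and 0.99 without control replicate 3, and those of let-7a, let-7e, let-7f and miR-98 took the opposite sign in at least 1 omission of a library. Among the 190 families, 55.8% lay above 0. Groups were apart, with the ratio higher, in let-7d alone of the 8, beside 7.89% of all families, and with the ratio lower in 0 of the 8, beside 2.63%. Limma on these log2 ratios, with Benjamini-Hochberg adjustment over the families, called 0% of the 190, and 13 had an unadjusted p under 0.05. The edgeR count model of arm by group also called 0, with 14 at an unadjusted p under 0.05.

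The control libraries differed from each other across the let-7 families at once. Control replicate 3 had the highest 3p share of the 3 controls in 7 of 8 families, and control replicate 2 the lowest of all 6 libraries in 7 of 8. As a median over the 8 families, the log2 ratio of smaller to larger arm stood -0.40, -0.67 and 0.35 from each family's mean in control replicates 1 to 3 and 0.21, 0.03 and 0.18 from it in PRMT1 replicates 1 to 3. Over all 190 families the same medians were -0.11, -0.07 and 0.01 in control and 0.14, 0.14 and 0.09 with PRMT1. Control replicate 2 also had the highest miR-21-5p share and, after TMM scaling, the highest level of 8 of the 8 5p arms; with library size alone it was highest in 0 of 8. The part of these library differences in the let-7d and let-7i values was not tested.

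Likeness over the 6 libraries was ranked among 157 other names with a mean of at least 100 CPM. The names whose levels were most like those of the summed members were miR-30b-5p (Pearson r = 0.89), miR-374b-5p (0.85), miR-140-5p (0.79), miR-424-3p (0.72) and miR-32-5p (0.70). For let-7d-3p they were miR-374b-5p (Pearson r = 0.95), miR-30b-5p (0.90), miR-30a-5p (0.79), miR-378e (0.75) and miR-181a-3p (0.68). These are the highest of many correlations over 6 libraries that share depth and scaling, and are a description only. MiR-374b-5p, for example, was at 35.1, 8.16 and 215 CPM in control and 298, 418 and 90.2 CPM in PRMT1 replicates 1 to 3. MiR-378e was at 4.62, 2.08 and 2.88 CPM in control and 42.7, 309 and 566 CPM in PRMT1 replicates 1 to 3. It met the limit on the mean only through its PRMT1 libraries.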

How the data were processed

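Small RNA tables of 6 BEAS-2B libraries (3 control, 3 PRMT1) were used. Sequencing and read filtering were done by BGI (BGI-500), as the series' design text says. Tools listed in the submitters' processing notes, with neither role nor version, are HISAT, Bowtie2 and RSEM, with the build GRCh37.p13. The labels' extraction protocol speaks of mRNA enrichment or rRNA depletion, although small RNA classes fill the tables. The deposited counts are whole reads per feature, per the file headers, and absent features were taken as 0. The deposited TPM values equalled the CPM of the whole library within 0.005 and were not used further.

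Rows of known mature miRNAs were filtered with filterByExpr, which left 668 names with 99.98% of their counts, scaled with TMM and tested with edgeR 4.0.16's quasi-likelihood method, robust (R 4.3.3), without a block. The SE is the log2 change over the square root of its F value. Arm ratios, log2 of 3p over 5p counts each plus 0.5, were fitted with limma 3.58.1, robust and with a trend, over 190 families joined by name. DESeq2 1.42.0 was an alternative. Calls were made at an adjusted p of 0.05, adjusted p-values being over all tested names or families. Both fits were tested on simulated data. A count of 3, the limit that a count of 0 allows, is 0.183 to 0.26 CPM before scaling. Libraries differed by at least 448.4 chi-square per degree of freedom, so none was a copy.

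The members and lists were chosen with earlier results of these data known. Named were all members, their 5p arms, listed neighbours, and the 5 names of a mean of at least 100 CPM with the highest Pearson r. The alternatives were other scalings, tools and filters, a replicate block, miR-21-5p left out, another pseudocount, other arm minimums and each library left out. Lists of markers and neighbours carry no test.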

Additional observations from a re-analysis of the deposited data

How the results depend on the processing

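The count of 0 called names of 668 was 4 with DESeq2, 9 without a filter on low counts and 1 with the replicate block; leaving out each library gave 0 to 1, the 1 arising without PRMT1 replicate 1. No member was called under any of these settings, and the cause was not tested. It stayed 0 with the other scalings, limma-voom, the stricter filter and without miR-21-5p. The count of 0 called hairpin families stayed 0 under all alternatives for the arm ratio, the replicate block included, and 0 to 0 when libraries were left out. Deviations of same-numbered libraries correlated at -0.066, 0.204 and -0.105, and those of different number at -0.166 to 0.233. With 3 libraries per group, these values cannot show whether replicate numbers paired libraries. The log2 fold change of let-7i-3p, at 2.09, was 1.51 with the replicate block. Across scalings, tools, filters and the block, members kept their sign, let-7g-3p being too scarce for the stricter filter. When a library was left out, miR-98-3p changed sign (-0.33 to 0.18), as did the arm ratios of let-7a, let-7e, let-7f and miR-98. With let-7f-2-3p kept apart, the difference in 3p percent of let-7f was 0.0361 instead of -0.045 points. Leaving out let-7d-3p and let-7i-3p together, comparing groups under other scalings and restricting the families by abundance were chosen after seeing the data. Depth limits the scarcest members, such as let-7g-3p.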
